A study of Canis lupus familiaris with 12 samples.

Results

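The cytosolic ribosomal proteins are the structural proteins of the ribosomes that translate nuclear-encoded mRNAs. They were chosen by name, as every gene whose symbol has the form RPL or RPS followed by a number, together with the P-stalk proteins and RPSA, and without the RPS6 kinases. Of the 24223 gene rows listed for each tissue, 71 rows of such names are described here, 24 of the small subunit and 47 of the large subunit. The 71 rows carried 53 symbols, because 13 symbols stood on several rows, 31 rows in all. Of a standard list of 79 ribosomal proteins, 49 had at least 1 such row, and 4 further symbols were paralogs outside that list, RPL10L, RPL22L1, RPL39L and RPS27L.

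The study sequenced RNA of mitral valve and left ventricle. The diseased dogs had degenerative mitral valve disease, called DMVD from here on, in which thickened leaflets let blood leak back into the atrium, and the control dogs were healthy. The 12 libraries came from 8 dogs, 4 with DMVD and 4 controls, and 4 dogs gave both tissues. The DMVD valves came from a Pomeranian of 9 years and from Beagles of 17 and 16 years, and the control valves from a Beagle of 8 years and 2 Hound mix dogs of 3 years. For the ventricle, the DMVD samples were from the same Pomeranian and a Jack Russell Terrier, 5 years old, and the control ventricles from the same Beagle of 8 years and 3 Hound mix dogs of 3 years. Breed and age moved with diagnosis in both tissues, so the part of each cannot be told apart from that of the disease. The authors deposited 1 value per tissue and diagnosis, in FPKM (fragments scaled to gene length and sequencing depth), so the spread between dogs and the depth of each library are unknown. Errors given with a log2 fold change are standard errors (SE) derived from the authors' own test statistic, and all fold changes are DMVD over control.

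As background, a cytosolic ribosome holds a small subunit, which reads the mRNA, and a large subunit, which joins amino acids. Most of its proteins are needed in equal numbers, and the ribosomal protein genes are among the most highly expressed in any cell. Their mRNAs carry a terminal oligopyrimidine (TOP) tract through which mTOR signalling controls their translation, and growth of the heart muscle under load is accompanied by the making of new ribosomes. Ribosomal protein genes have also left many near-identical processed copies in mammalian genomes, which can share sequencing reads with the parent gene. Of the 71 rows, 17 also share their listed locus with another gene.

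The labelled tissues were set against their marker genes, counted as found where a row bore the symbol. Fibroblast and interstitial markers, 7 of 13 of which were found, summed to 1855 FPKM in DMVD valve and 1227 FPKM in control valve, against 82.6 FPKM in DMVD ventricle and 96.6 FPKM in control ventricle. Cardiomyocyte markers, 9 of 15 found, summed to 9700 FPKM in DMVD valve and 19996 FPKM in control valve, so the valve samples also held heart muscle RNA. In the ventricle these markers summed to 26731 FPKM in DMVD dogs and 30378 FPKM in control dogs, with MYH7, the beta myosin heavy chain, listed at 0 in control ventricle. MYH7 thus adds to the DMVD sum alone, so the ventricle sums do not cover the same markers. Whether that 0 reflects the tissue or the quantification was not tested. MYL3, the ventricular myosin light chain, fell in DMVD valve, to 36.6 FPKM against 1335 FPKM in control valve (log2 fold change -5.19 ± 0.68, Benjamini-Hochberg adjusted p = 2.64e-10 from the authors' test). Values per cell type were not measured: in these bulk samples fewer cells of a type and less RNA per cell cannot be told apart.

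In the left ventricle, every tested ribosomal protein row had a higher value in DMVD than in control dogs, by similar amounts, but none passed the test after adjustment over all genes. The authors tested 62 of the 71 rows there. Their median log2 fold change was 0.79, a 1.73-fold difference, and the quartiles were 0.70 and 0.95. Over all tested genes above 0 in both groups the median was -0.04 with quartiles of -0.47 and 0.38, and 47.1% of those genes had the higher value in DMVD. The SD of the log2 fold change among the ribosomal protein rows was 0.22, against 0.97 over all tested genes. None of the 62 rows was called at a Benjamini-Hochberg adjusted p under 0.05, while 3.08% of all 13788 tested genes were, 1.92% higher and 1.16% lower in DMVD. The lowest adjusted p among them was 0.167, for the RPL21 row of chromosome 32. That row lies at a place other than the gene's usual one by its neighbouring genes. At an unadjusted p under 0.05 there were 17 of 62 rows, or 27.4%, all higher in DMVD, where 5.74% of all tested genes were higher at that level. The SE of a single row, 0.48 at the median, was of the same order as the fold change itself.

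The 9 rows left untested in the ventricle were RPL6, RPL30, RPL36, RPL38, RPS20, RPS25, RPS26 and 1 row each of RPL12 and RPL32. Their highest group value was 0.38 FPKM and 5 of them were listed at 0 in both groups. The valve table left out 8 of these rows and tested RPL6, at 0.826 FPKM in DMVD and 0.859 FPKM in control valve. For each of these proteins the row of that name lies at a place other than the gene's usual one by its neighbouring genes, and no level of the protein's parent gene can be read from it.

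**Figure D1:**
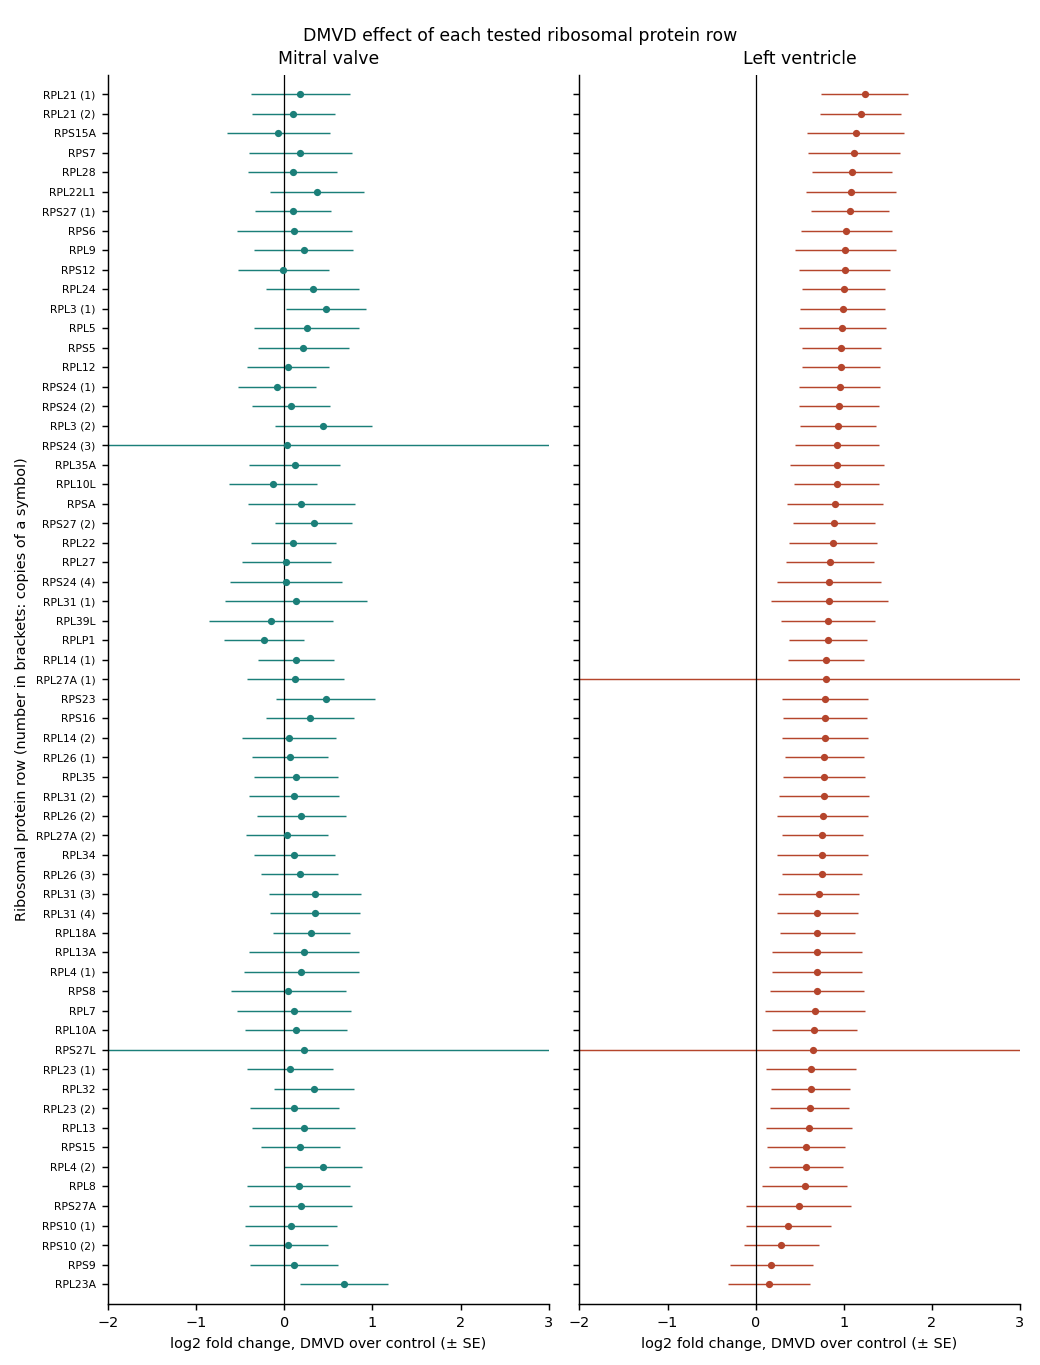
Log2 fold change, DMVD over control, of each tested ribosomal protein row in mitral valve (left panel) and left ventricle (right panel), with points for the value and bars for 1 SE. Bars that run past the axis are cut off, and RPL6, tested in the valve alone, is not drawn. The 62 ventricle points lie between 0.15 and 1.24, while the valve points gather near 0.13, between -0.23 and 0.68.

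Among the small subunit proteins the median in the ventricle was 0.89 over 21 rows. RPS15A had 1815 FPKM in DMVD and 826 FPKM in control ventricle (log2 fold change 1.13 ± 0.55). RPS7, needed for processing of the small subunit rRNA, had 639 FPKM in DMVD and 295 FPKM in control ventricle (1.12 ± 0.52). RPS6, the substrate of the S6 kinases and a common readout of mTOR activity at the protein level, had 1190 FPKM in DMVD and 583 FPKM in control ventricle (1.03 ± 0.52). Each lay about 2 SE above 0, and their adjusted p-values by Benjamini-Hochberg were 0.394 for RPS15A, 0.355 for RPS7 and 0.429 for RPS6. RPSA, which also serves as a laminin receptor, had 607 FPKM in DMVD and 325 FPKM in control ventricle (0.90 ± 0.55).

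The smallest differences of the small subunit were those of RPS9 and RPS10. RPS9, a protein that takes part in decoding, had 537 FPKM in DMVD and 475 FPKM in control ventricle (0.18 ± 0.47). RPS10 had 726 FPKM in DMVD and 561 FPKM in control ventricle on chromosome 12 (0.37 ± 0.49), and its row on chromosome 29 had 93.6 FPKM in DMVD and 76.4 FPKM in control ventricle (0.29 ± 0.43). RPS27A, made as a fusion with ubiquitin, had 1637 FPKM in DMVD and 1165 FPKM in control ventricle (0.49 ± 0.60). With SEs of this size these rows are not shown to differ from the median of the set.

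Among the large subunit proteins the median in the ventricle was 0.78 over 41 rows. RPL21 had the largest difference of all, 335 FPKM in DMVD and 142 FPKM in control ventricle for its row on chromosome 25 (1.24 ± 0.49). Its row on chromosome 32 had 85.4 FPKM in DMVD and 37.3 FPKM in control ventricle (1.20 ± 0.46), for which the authors' deposited table gives p = 0.00926. The chromosome 32 row spans 483 bases and lies away from the gene's usual place by its neighbours, so it may not give the level of RPL21. RPL28 had 134 FPKM in DMVD and 62.7 FPKM in control ventricle (1.09 ± 0.45). RPL5, which carries the 5S rRNA into the large subunit and binds MDM2 when ribosome assembly is disturbed, had 138 FPKM in DMVD and 69.6 FPKM in control ventricle (0.98 ± 0.49). RPL8 lay low in the set at 517 FPKM in DMVD and 351 FPKM in control ventricle (0.56 ± 0.48). RPL23A, whose protein lies at the exit of the peptide tunnel, had the smallest difference, 34.7 FPKM in DMVD and 31.3 FPKM in control ventricle (0.15 ± 0.47). The RefSeq table used here held no single gene of that symbol, so the place of the RPL23A row could not be checked. RPLP1, a protein of the P-stalk that recruits elongation factors, had 183 FPKM in DMVD and 104 FPKM in control ventricle (0.82 ± 0.44). The RPLP1 row lies at a place other than the gene's usual one by its neighbours, so it may not give the level of that gene.

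The 6 most abundant rows had log2 fold changes from 0.49 for RPS27A to 1.13 for RPS15A, both described above. RPS12 had 2048 FPKM in DMVD and 1016 FPKM in control ventricle (1.01 ± 0.51). RPS27, a zinc-finger protein of the small subunit, had 2038 FPKM in DMVD and 1098 FPKM in control ventricle on chromosome 7 (0.89 ± 0.46). RPL13A, also known as a part of an interferon-induced translation block, had 1699 FPKM in DMVD and 1047 FPKM in control ventricle (0.70 ± 0.52). RPS24 had 1431 FPKM in DMVD and 800.0 FPKM in control ventricle on chromosome 4 (0.84 ± 0.59). Across the set the rows differed far more in level than in fold change.

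The paralogs outside the standard list had the same sign. RPL22L1, the paralog of RPL22, had 85.8 FPKM in DMVD and 40.5 FPKM in control ventricle (1.08 ± 0.51). The row named RPL22 had 1412 FPKM in DMVD and 767 FPKM in control ventricle (0.88 ± 0.50). That row spans 387 bases and lies at a place other than the gene's usual one by its neighbouring genes. It may therefore not give the level of the RPL22 gene. RPL10L, known in mouse as the testis counterpart of RPL10 on the X chromosome, had 26.2 FPKM in DMVD and 13.8 FPKM in control ventricle (0.92 ± 0.48). RPL39L, likewise enriched in testis in mouse and human, was listed at 599 FPKM in DMVD and 340 FPKM in control ventricle (0.82 ± 0.53). Its row spans 153 bases and its place could not be checked either, and whether reads of RPL39 are counted there was not tested. RPS27L, a p53 target in human cells, had 4.43 FPKM in DMVD and 2.83 FPKM in control ventricle, with an SE of 4.43 that leaves its log2 fold change of 0.65 undetermined. The RPS27L row too lies away from the gene's usual place by its neighbours.

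**Figure D2:**
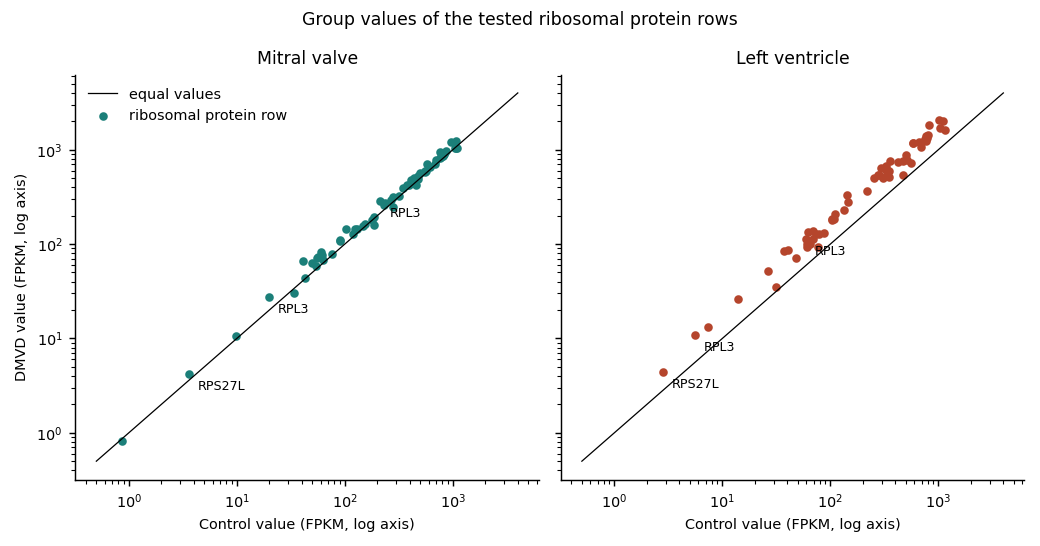
DMVD value against control value of each tested ribosomal protein row, in FPKM on log axes, for mitral valve (left panel) and left ventricle (right panel), where the line marks equal values. All 62 ventricle points lie above the line, and the 63 valve points follow it closely on either side.

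As a set, the 71 rows summed to 38036 FPKM in DMVD ventricle and 21802 FPKM in control ventricle, a ratio of 1.74. How large this difference is depends on what it is set against, because the mitochondrial genome took 35.7% of the summed FPKM in DMVD ventricle and 70.1% in control ventricle. As a share of all rows the ribosomal proteins made up 3.57% in DMVD and 1.15% in control ventricle. Outside the mitochondrial genome they made up 5.55% in DMVD and 3.84% in control ventricle, a ratio of 1.45. The part of the mitochondrial transcripts in the result was not tested, beyond these ratios.

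Short and abundant genes in general also had higher values in DMVD ventricle at the median, by less than the ribosomal proteins. The 281 other genes that averaged 300 FPKM or more had a median log2 fold change of 0.24. The 628 other genes of at least 5 FPKM whose locus spans under 1 kb had a median of 0.35, and the 5108 whose locus spans over 5 kb had one of 0.01. Ribosomal protein rows had medians of 0.77 under 1 kb (20 rows), 0.80 between 1 and 5 kb (23 rows) and 0.84 over 5 kb (19 rows). A locus span counts introns and is not the length of the transcript. Several of the rows over 5 kb also share their listed locus with other genes, so their span is not that of the gene alone. Examples are the RPS24 rows of chromosome 21 (500094 bases) and chromosome 8 (481520 bases), neither at the gene's usual place by its neighbours. The part of length in the result was not tested.

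Markers of blood and immune cells also moved with diagnosis in the ventricle. Neutrophil markers, 8 of 11 found, summed to 395 FPKM in DMVD and 14.7 FPKM in control ventricle, and all 6 tested rose. Erythroid markers, 6 of 10 found, summed to 3605 FPKM in DMVD and 63.0 FPKM in control ventricle, and all 4 tested rose. Macrophage markers, 8 of 13 found, summed to 104 FPKM in DMVD and 37.2 FPKM in control ventricle. All 8 tested had the higher value in DMVD, at a median log2 fold change of 1.40, and 2 were called higher, FCGR1A and C1QB. Endothelial markers, 9 of 12 found, summed to 233 FPKM in DMVD and 129 FPKM in control ventricle. All 9 tested had the higher value in DMVD, at a median of 0.68, and SOX17, ROBO4 and VWF were called higher. Of the 6 fibroblast markers tested 3 had the higher value in DMVD, POSTN was called higher and the other 5 were not called. Lymphocyte markers, 13 of 14 found and 4 tested, summed to 6.32 FPKM in DMVD and 4.78 FPKM in control ventricle, with MS4A1 and NKG7 at 0 in DMVD. Calls, and markers said to have risen, were at a Benjamini-Hochberg adjusted p under 0.05. Of all tested genes, 1.92% were called higher in DMVD ventricle. The part of these cells in the ribosomal protein values was not tested.

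**Figure D3:**
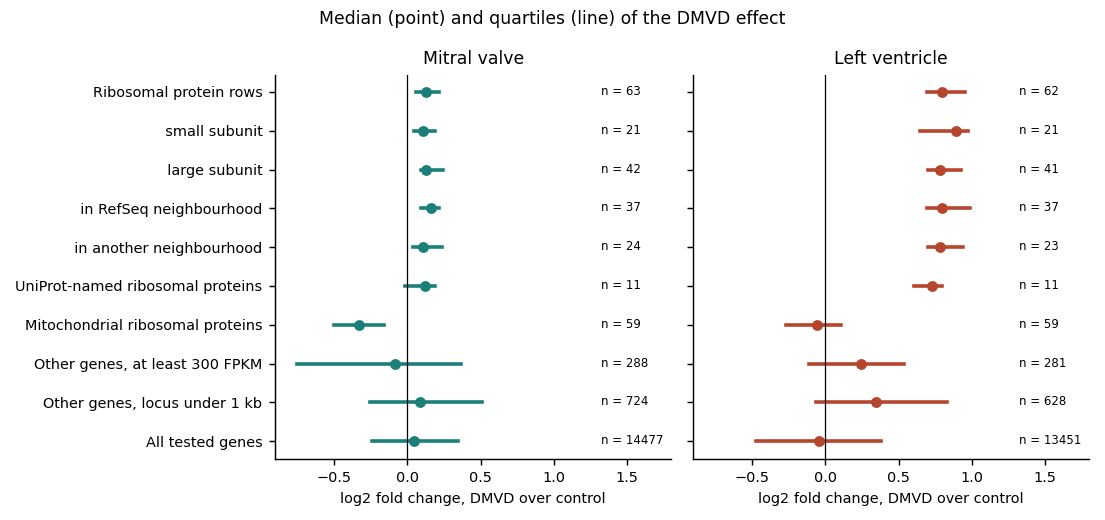
Median (point) and quartiles (line) of the log2 fold change, DMVD over control, in mitral valve (left panel) and left ventricle (right panel), for ribosomal protein rows, their subsets and other gene groups among tested genes above 0 in both groups. In the ventricle all ribosomal protein subsets lie between 0.73 and 0.89 and all tested genes at -0.04; in the valve the subsets lie between 0.10 and 0.16.

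In the mitral valve the ribosomal proteins differed little between DMVD and control dogs, and none of the rows described here was called. Over 63 tested rows the median log2 fold change was 0.13, with quartiles of 0.06 and 0.22, against 0.05 over all tested genes above 0 in both groups. DMVD had the higher value in 56 rows, or 88.9%, where 54.7% of all tested genes did. The small subunit had a median of 0.10 over 21 rows and the large subunit one of 0.13 over 42 rows. At a Benjamini-Hochberg adjusted p under 0.05, 0 of 63 rows were called, where 0.419% of all 14810 tested genes were, 0.311% higher and 0.108% lower in DMVD. At an unadjusted p under 0.05 there were also 0 of 63, where 4.2% of all tested genes reached that level, 2.73% higher and 1.47% lower in DMVD. The summed value was 26517 FPKM in DMVD and 24194 FPKM in control valve, a ratio of 1.1. Outside the mitochondrial genome, which took 22.3% of the sum in DMVD and 39.2% in control valve, the share was 4.42% in DMVD and 4.43% in control valve. The median SE was 0.52, so a difference of the size seen in the ventricle would lie within 2 SE of most of these values.

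The largest valve differences were within 1.5 SE of 0. RPL23A had 65.5 FPKM in DMVD and 40.9 FPKM in control valve (0.68 ± 0.50), the highest in the set, for which the authors' deposited table gives p = 0.171. RPL3, which lies close to the peptidyl transferase centre, had 289 FPKM in DMVD and 213 FPKM in control valve on chromosome 10 (0.44 ± 0.55), and 27.6 FPKM in DMVD and 19.9 FPKM in control valve on chromosome 12 (0.47 ± 0.46). The chromosome 12 row lies at a place other than the gene's usual one by its neighbours. RPS23, a decoding-centre protein, had 143 FPKM in DMVD and 104 FPKM in control valve (0.47 ± 0.56). RPL4 had 81.5 FPKM in DMVD and 60.1 FPKM in control valve for its row on chromosome 27 (0.44 ± 0.44), away from the gene's usual place by its neighbours. The RPL4 row at the usual place, on chromosome 30, had 499 FPKM in DMVD and 436 FPKM in control valve (0.19 ± 0.65). RPL22L1 had 71.7 FPKM in DMVD and 55.5 FPKM in control valve (0.37 ± 0.53). The Benjamini-Hochberg adjusted p was above 0.9 for each of these rows.

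Lower values in DMVD valve stood in 7 rows. The lowest were RPLP1 at 159 FPKM in DMVD and 188 FPKM in control valve (-0.23 ± 0.45), RPL39L at 250 FPKM in DMVD and 278 FPKM in control valve (-0.15 ± 0.71) and RPL10L at 30.6 FPKM in DMVD and 33.5 FPKM in control valve (-0.13 ± 0.50). RPS24 on chromosome 21 had 427 FPKM in DMVD and 453 FPKM in control valve (-0.08 ± 0.45), RPS15A had 1047 FPKM in DMVD and 1097 FPKM in control valve (-0.07 ± 0.59), and RPL6 and RPS12 were at -0.06 and -0.01. All of these were within 1 SE of 0.

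The abundant rows were nearly level in the valve. RPL13A had 1246 FPKM in DMVD and 1067 FPKM in control valve (0.22 ± 0.62), and RPS27 on chromosome 7 had 1223 FPKM in DMVD and 972 FPKM in control valve (0.33 ± 0.44). RPS12 had 1054 FPKM in DMVD and 1062 FPKM in control valve, RPS24 on chromosome 4 had 1056 FPKM in DMVD and 1044 FPKM in control valve, and RPS27A had 977 FPKM in DMVD and 860 FPKM in control valve. RPS6 stood at 893 FPKM in DMVD and 825 FPKM in control valve (0.11 ± 0.65), RPSA at 394 FPKM in DMVD and 345 FPKM in control valve (0.19 ± 0.61) and RPL5 at 109 FPKM in DMVD and 91.2 FPKM in control valve (0.25 ± 0.60). RPS27L was at 4.18 FPKM in DMVD and 3.59 FPKM in control valve, with an SE of 4.94, and RPS24 on chromosome 8 had an SE of 23.1 beside a log2 fold change of 0.03. Neither of these last values bounds a difference.

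Blood and immune markers also had higher summed values in DMVD in the valve. Neutrophil markers summed to 47.1 FPKM in DMVD and 10.3 FPKM in control valve. All 5 tested had the higher value in DMVD, and S100A9 was called higher. Erythroid markers summed to 609 FPKM in DMVD and 36.2 FPKM in control valve, and the alpha globin row was called higher, of 4 tested. Macrophage markers summed to 258 FPKM in DMVD and 87.1 FPKM in control valve. All 8 tested had the higher value in DMVD, and C1QB was called higher. Endothelial markers summed to 126 FPKM in DMVD and 77.9 FPKM in control valve and lymphocyte markers to 11.9 FPKM in DMVD and 3.60 FPKM in control valve, with none called at a Benjamini-Hochberg adjusted p under 0.05. All 9 endothelial markers tested had the higher value in DMVD. Of all tested genes, 0.311% were called higher in DMVD valve. The markers at 0 were NKG7 in both groups, and CXCR2, HBM, CD79B and GZMB in control valve.

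Whether the DMVD effect differed between the tissues was tested row by row, as valve effect minus ventricle effect over the combined SE, for 62 ribosomal protein rows among 13099 genes. The difference was below 0 in 61 of the 62 rows, where it was below 0 in 46.7% of all genes. Its median over the rows was -0.67, against 0.05 over all genes. None was called at a Benjamini-Hochberg adjusted p under 0.05, where 0.107% of all genes were, and none had an unadjusted p under 0.05, where 2.66% of all genes did. The lowest were RPS15A at -1.20 ± 0.81 and the RPL21 row of chromosome 32 at -1.10 ± 0.66, with an unadjusted p of 0.137 for RPS15A and 0.0959 for RPL21. RPL23A was the 1 row above 0, at 0.53 ± 0.68. For these single rows a difference between tissues was therefore not detectable with these errors. The test takes the tables as independent although 4 dogs gave both tissues and the tables were normalised separately.

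Levels in the valve were then set beside those in the ventricle, as log2 ratios of separately normalised values. In DMVD dogs the ribosomal protein rows had a median valve-over-ventricle ratio of -0.34 with quartiles of -0.62 and -0.11, and all genes of at least 1 FPKM had one of 0.36. In control dogs the ribosomal median was 0.34 with quartiles of 0.01 and 0.50, close to the 0.31 of all genes. Rows above 0 numbered 9 of 62 in DMVD dogs and 48 of 62 in control dogs. The set's ratio was thus below that of genes in general in DMVD dogs and near it in control dogs. These ratios use the values of the comparisons above and add no test. Among the DMVD dogs the Pomeranian alone gave both tissues, while every control valve came from a dog that also gave ventricle. The DMVD ratio thus mostly sets different dogs, of unlike age and breed, against each other, and this cannot be told apart from diagnosis.

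RPL3 had the highest valve-over-ventricle ratio in both diagnosis groups. Its row on chromosome 10 (25740007 to 25745431) had 289 FPKM in DMVD valve against 114 FPKM in DMVD ventricle, a log2 ratio of 1.34, and 213 FPKM in control valve against 59.6 FPKM in control ventricle, a log2 ratio of 1.84. The row on chromosome 12 (59069085 to 59070296) had 27.6 FPKM in DMVD valve against 10.99 FPKM in DMVD ventricle, and 19.9 FPKM in control valve against 5.54 FPKM in control ventricle, with log2 ratios of 1.33 in DMVD and 1.85 in control dogs. This row lies away from the gene's usual place by its neighbours and can share reads with the parent gene, so it is not a separate measurement. The chromosome 10 row, at the usual place, shares its listed locus with other genes. The next highest were RPL23A at 0.92 in DMVD dogs and RPL10L at 1.28 in control dogs. As background, heart and skeletal muscle of mouse and human express a paralog, RPL3L, that takes the place of RPL3 in ribosomes. RPL3L was not analysed here, nor were RPL7L1, RPL26L1, RPL36AL, RPLP0, RPLP2, RPS4X, RPL11 and RPS19. The RPL3 row of chromosome 10 had a log2 fold change of 0.94 ± 0.44 in the ventricle and that of chromosome 12 one of 0.99 ± 0.48, so its DMVD difference there was like that of the other ribosomal proteins.

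**Figure D4:**
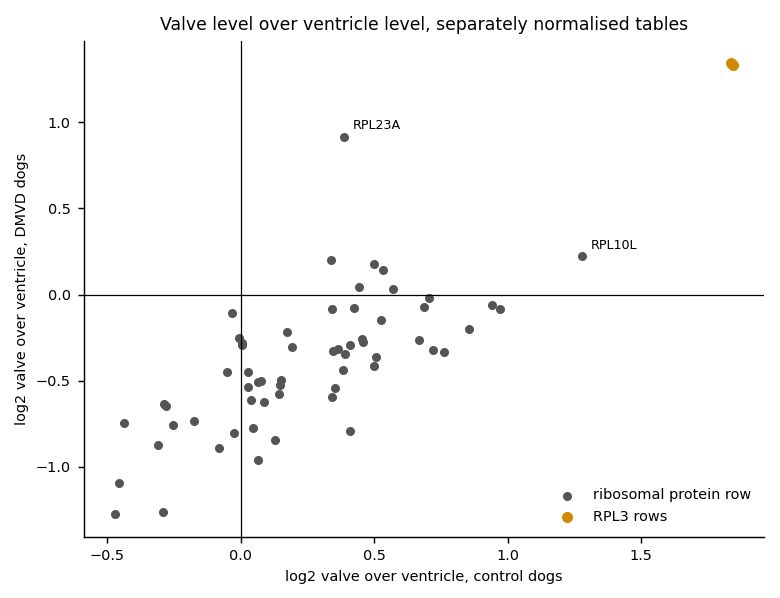
Log2 ratio of valve value over ventricle value for each ribosomal protein row tested in both tissues, in DMVD dogs (vertical axis) against control dogs (horizontal axis), with RPL3 rows in orange. Both RPL3 rows lie apart at the upper right, and most other rows lie below 0 in DMVD dogs.

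Rows that bear the same symbol gave nearly the same fold change. For the 11 symbols with at least 2 tested rows (27 rows), the log2 fold changes of a symbol spanned 0.09 in the valve and 0.05 in the ventricle at the median, with a widest span of 0.25 in the valve and 0.18 in the ventricle. The levels were far apart. In the ventricle the 4 RPL31 rows differed 99.2-fold in mean level and had log2 fold changes between 0.70 and 0.84. The 4 RPS24 rows lay between 0.84 and 0.96 there, and the 3 RPL26 rows between 0.75 and 0.78. Such copies can share reads with the parent gene, so they are not separate measurements of it.

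The place of each row was checked against RefSeq by its neighbours. Of the 71 rows, 37 had at least 2 neighbours in common with the RefSeq gene of that name, 32 lay elsewhere, and 2 (RPL23A and RPL39L) had no single gene of that symbol to be set against. Rows at the RefSeq place had a median log2 fold change of 0.16 in the valve and 0.80 in the ventricle, over 37 rows in each. Rows elsewhere had a median of 0.11 in the valve over 24 rows and 0.78 in the ventricle over 23 rows. The ventricle difference was thus of the same size in both kinds of row. Rows elsewhere can share reads with the parent gene, so the likeness is not a separate check.

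A further 11 rows bear UniProt entry names of ribosomal proteins in place of symbols and so fell outside the rule. They supplied 8 proteins of the standard list that had no row by symbol. Their median log2 fold change was 0.12 in the valve, with 8 of 11 higher in DMVD, and 0.73 in the ventricle, with 11 of 11 higher. Of all tested genes above 0 in both groups, 54.7% were higher in DMVD in the valve and 47.1% in the ventricle. None of the 11 rows had an unadjusted p under 0.05, where 4.2% of all tested genes did in the valve and 11.3% in the ventricle. None was called after adjustment, where 0.419% of all tested genes were in the valve and 3.08% in the ventricle. RL36A_CANFA, the most abundant of the 11, is listed on 2 rows, the higher with 1383 FPKM in DMVD and 1457 FPKM in control valve, and with 3167 FPKM in DMVD and 1632 FPKM in control ventricle. The ubiquitin fusion RL40_CANFA had the smallest ventricle difference, 812 FPKM in DMVD and 684 FPKM in control ventricle (0.25 ± 0.50). RS17_CANFA had 1683 FPKM in DMVD and 941 FPKM in control ventricle (0.84 ± 0.57).

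Mitochondrial ribosomal proteins, which build the separate ribosomes of the organelle, had a median below 0 in the valve and one near that of all tested genes in the ventricle. In the valve their 59 tested rows had a median log2 fold change of -0.33, against 0.05 over all tested genes. There 6 rows, or 10.2%, were higher in DMVD, where 54.7% of all tested genes were. In the ventricle the median was -0.06, against -0.04 over all tested genes, with 25 rows, or 42.4%, higher in DMVD, against 47.1%. None was called in either tissue by the Benjamini-Hochberg adjustment, where 0.419% of all tested genes were in the valve and 3.08% in the ventricle. No test of the difference between the mitochondrial and the cytosolic ribosomal proteins was made.

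The genes that make and regulate ribosomes were described from lists. For comparison with each list, 54.7% of all tested genes above 0 in both groups were higher in DMVD in the valve and 47.1% in the ventricle. At a Benjamini-Hochberg adjusted p under 0.05, 0.419% of all tested genes were called in the valve and 3.08% in the ventricle. Among other genes with TOP mRNAs, 17 of 26 were found and 16 tested, and 0 were called. Their median was -0.01 in the valve, with 7 of 16 higher in DMVD, and 0.54 in the ventricle, with 14 of 16 higher. FAU, which is processed into the small subunit protein eS30, had 1145 FPKM in DMVD and 561 FPKM in control ventricle (1.03 ± 0.46), and GNB2L1, the ribosome-bound scaffold RACK1, had 493 FPKM in DMVD and 271 FPKM in control ventricle (0.86 ± 0.47). In the valve BTF3 and NAP1L1 had the smallest p of the list, at -0.18 ± 0.52 and -0.17 ± 0.52. HNRNPA1 was at 0 in control samples of both tissues.

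Ribosome biogenesis factors, 63 of 70 found, had none called in either tissue. Their median was 0.12 in the valve, with 43 of 63 higher in DMVD, and 0.32 in the ventricle, with 45 of 63 higher. NPM1, a nucleolar chaperone of ribosome assembly, had 245 FPKM in DMVD and 132 FPKM in control ventricle (0.89 ± 0.44), and WDR12, of the complex that processes large subunit rRNA, had 10.3 FPKM in DMVD and 5.34 FPKM in control ventricle (0.95 ± 0.48). WDR12 had 8.40 FPKM in DMVD and 5.51 FPKM in control valve (0.61 ± 0.57), and NOP2 had 4.69 FPKM in DMVD and 3.13 FPKM in control valve (0.58 ± 0.55). These values were at most about 2 SE from 0.

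RNA polymerase I and III genes were listed with MYC, the transcription factor that drives ribosome synthesis, and 29 of 33 were found and tested. MYC was the 1 gene of the list called in the ventricle, and rose to 15.4 FPKM in DMVD, against 2.93 FPKM in control ventricle (2.39 ± 0.46, Benjamini-Hochberg adjusted p = 3.74e-05 from the authors' test). Its partner MAX had 28.6 FPKM in DMVD and 13.9 FPKM in control ventricle (1.04 ± 0.44). None was called in the valve, where MYC had 17.2 FPKM in DMVD and 6.43 FPKM in control samples (1.42 ± 0.50, Benjamini-Hochberg adjusted p = 0.360 from the authors' test) and MAX had 25.6 FPKM in DMVD and 14.6 FPKM in control samples (0.81 ± 0.51). The list's median was 0.14 in the valve, with 19 of 29 higher in DMVD, and -0.07 in the ventricle, with 13 of 29 higher. Apart from MYC in the ventricle, the list thus held values on both sides of 0 and no call.

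Of the mTOR and S6 kinase genes, 23 of 24 were found, 23 tested in the valve and 22 in the ventricle. DDIT4, a stress-induced inhibitor of mTOR complex 1, rose to 142 FPKM in DMVD ventricle, against 12.3 FPKM in control ventricle (3.53 ± 0.54, Benjamini-Hochberg adjusted p = 2.40e-08 from the authors' test), and was the 1 gene called. In the valve it had 156 FPKM in DMVD and 17.6 FPKM in control samples (3.15 ± 1.02), with an adjusted p of 0.227 by Benjamini-Hochberg. RPS6KA2, a kinase of the RSK family, had 3.00 FPKM in DMVD and 2.10 FPKM in control valve (0.52 ± 0.49), and 4.19 FPKM in DMVD and 1.86 FPKM in control ventricle (1.17 ± 0.44). The median of the list was 0.04 in the valve, with 13 of 23 higher in DMVD, and -0.39 in the ventricle, with 8 of 22 higher. The list mixes kinases with inhibitors such as DDIT4, so its median gives no direction of mTOR activity. Ribosome quality control and stress genes, 12 of 18 found and tested, had medians of 0.06 in the valve and 0.02 in the ventricle, with 0 called. Their smallest p in the ventricle was that of ABCE1, the ribosome recycling factor, at 25.6 FPKM in DMVD and 17.0 FPKM in control ventricle (0.59 ± 0.44).

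**Figure D5:**
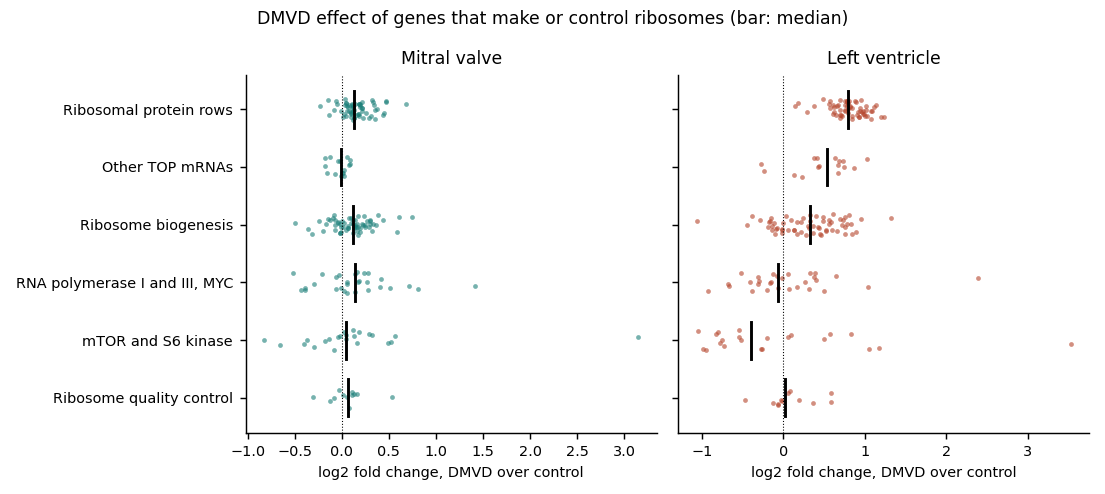
Log2 fold change, DMVD over control, of each tested gene of the ribosomal protein set and of the lists of genes that make or control ribosomes, in mitral valve (left panel) and left ventricle (right panel), with bars at the medians. In the ventricle the medians run from 0.79 for ribosomal proteins and 0.54 for other TOP mRNAs to -0.39 for the mTOR list, with MYC at 2.39 and DDIT4 at 3.53 apart from their lists.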

How the data were processed

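Per the labels' protocols, RNA from the 12 samples was isolated with a fibrous-tissue kit, made into TruSeq libraries and run on an Illumina HiSeq. The submitters' processing notes name cutadapt, Bowtie, TopHat and CanFam3.1. Which program computed gene values was not stated in these sources. The authors deposited 1 table per tissue with 1 value per group, read here as FPKM from the layout of the file headers, which resembles a Cuffdiff table. The log2 fold change the authors deposited is control over DMVD and was recomputed as DMVD over control. The authors deposited a test statistic, a score, and an unadjusted p-value. That p matches a two-sided normal p from the statistic within 2.84e-06, so the SE is the log2 fold change divided by it. It is the authors' model error and p-values do not show the spread between dogs. Depth is unknown.

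Benjamini-Hochberg adjustment ran over all genes the authors tested in a tissue, at 0.05. Valve and ventricle effects were compared by a two-sided normal test of their difference over 13099 genes. Samples were grouped by the labelled tissue and diagnosis. Named genes were, per tissue, the rows past the threshold, the 6 largest differences in each direction among rows averaging 5 FPKM or more, the 6 highest levels, and paralogs and proteins picked for their biology; of each list, called genes (up to 4) or the 2 with the smallest p. In the ventricle, where no row was lower, the 6 smallest differences stand for that direction. Of the rows that met the naming rule, 1 is not reported here and enters no value of the set, though it stays in the adjustment over all genes. The members, lists and rules were chosen with earlier results of these data known. Positions are on CanFam3.1, counted from 1; RefSeq (UU_Cfam_GSD_1.0) gave neighbours only, 5 on each side. Steps were tested on simulated data and run with pandas 2.3.3, numpy 2.4.6 and scipy 1.17.1 under Python 3.11.15, with figures by matplotlib 3.10.9. Sequences were not used here. Alternatives tried were other adjustments, filters, 1 FPKM added, other row sets and other scales.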

Additional observations from a re-analysis of the deposited data

How the results depend on the processing

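The medians moved by less than 0.1 under every alternative run, between 0.74 and 0.83 in the ventricle and between 0.08 and 0.16 in the valve. The 125 single rows were rerun with 1 FPKM added and with centring on the median of all tested genes. Of them, 7 changed sign, all valve rows near 0 on centring, and the 250 alternative values stayed within 1 SE of the reported ones. The medians taken off, -0.04 in the ventricle and 0.05 in the valve, are far below the lowest SEs, 0.42 and 0.43. Centring could therefore not move a row by 1 SE. The count of ventricle rows called was 0 as reported and 17 at an unadjusted p under 0.05. The counts of rows called in the valve and in the difference between tissues were 0 as reported and 0 under every alternative run. The ratio of summed ventricle values, 1.74 as reported, was 3.11 as a share of all rows and 1.45 as a share outside the mitochondrial genome. In the valve the ratio, 1.1 as reported, was 1.27 as a share of all rows. The reported ratios are of plain sums, and the shares also divide each sum by a total that differs between the groups.

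The alternatives on RefSeq place, UniProt-named rows and the mitochondrial genome were chosen after seeing the data. Leaving out libraries was not run, because the tables hold group values only. No paired analysis was possible because the tables hold 1 value per group and none per dog. Ventricle calls rest on 2 DMVD libraries, and the SEs, near 0.5 on the log2 scale, limit what single rows can show.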

Other observations

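Cell cycle genes, 15 of 16 found, were not called in either tissue (Benjamini-Hochberg adjusted p). They summed to 110 FPKM in DMVD and 83.8 FPKM in control valve, with 11 of 12 tested rows higher in DMVD and a median log2 fold change of 0.45. In the ventricle they summed to 67.4 FPKM in DMVD and 53.7 FPKM in control samples, with 6 of 8 higher and a median of 0.17. Of all tested genes above 0 in both groups, 54.7% were higher in DMVD in the valve and 47.1% in the ventricle. The shares of all tested genes called were 0.419% in the valve and 3.08% in the ventricle. TOP2A, the topoisomerase of dividing cells, had 0.634 FPKM in DMVD and 0.127 FPKM in control valve, and MCM6, of the replicative helicase, had 3.00 FPKM in DMVD and 1.67 FPKM in control ventricle.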
